A study of Mus musculus with 8 samples.

Results

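The extracellular matrix genes described here encode collagens, the enzymes that crosslink them, matricellular and adhesive proteins, matrix proteases with their inhibitors, small proteoglycans and elastic fibre proteins. The 42 members are a list of gene symbols with these roles. The list was chosen without a rule on measured values, but with earlier results of these data known. Each array probe was tied to a symbol through the accession printed beside it. All 42 were measured, among 25139 gene names kept on the array. The tissue was white fat of mice aged 5 weeks, on a 129 × C57BL/6 background and regular chow. The study compared 4 wild-type samples (WT) with 4 samples called Ad/NICD, in which the Notch1 intracellular domain, the active fragment of the Notch1 receptor, was overexpressed. The promoter that drives the transgene, the fat depot and the sex of the mice were not given in the sources used here.

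Each fat cell sits in a basement membrane of type IV collagen, laminins and nidogens, and is held in a mesh of fibrillar and type VI collagens. Most of the fibrillar and type VI chains are made by fibroblasts and adipocyte progenitors, while adipocytes and endothelial cells build much of their own basement membrane. After secretion, lysyl oxidases crosslink collagen and elastin, and metalloproteases cut them as the tissue grows.

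Total RNA from 1 WT and 1 Ad/NICD sample was hybridised together on each of 4 2-colour Agilent arrays, so that every array gives 1 log2 ratio per gene. The ratio is printed as Ad/NICD over WT, taken as red over green, because the submitters' own value table holds the green signals under WT and the red signals under Ad/NICD. The dye tags of the single samples state the opposite, so this direction is likely rather than settled, and every sign would turn if the tags were right. Without a dye swap, the effect of the dye and that of the genotype cannot be told apart. The Notch1 probe had levels of 9.08, 8.60, 8.86 and 8.67 in WT replicates 1 to 4 and of 10.32, 8.95, 8.85 and 8.53 in Ad/NICD. Notch1 was thus clearly higher in Ad/NICD on the array of replicate 1 alone, and whether the probe lies within the overexpressed fragment is not known here, so it does not check the labels. Levels are log2 signals after normalisation, they can be compared between samples of 1 gene but not between genes, and their number, not their depth, limits the precision.

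Samples stood apart in ways that touch the matrix genes. WT replicates 1 and 3 were the most alike of all sample pairs, with a median absolute deviation of 0.101 between their log2 levels over 7298 bright genes, where the other pairs ranged from 0.186 to 0.435. Over repeated probes they differed by 0.088, less than repeat spots of a probe differ on 1 array in the green channel (0.151 to 0.170), so they may be 1 RNA and were counted as 1 WT sample in each mean ± SD. Some matrix genes still differed between them, by up to 0.55 for Col1a1, and over all 42 members the SD of the difference was 0.19. In replicate 4, both samples carried the male pattern of Xist (6.12 and 5.87) and Ddx3y (9.96 and 9.55), while the other 6 samples carried the female pattern (Xist of at least 10.15). WT replicate 4 also had a summed skeletal muscle signal of 107000 against 993 to 8950 in the other samples, and the lowest summed signal of the 42 matrix genes, 155000 against 266000 to 456000. The labels call the samples biological replicates without naming animals, and p-values of the ratio fit measure the spread between 4 pairs. If WT replicates 1 and 3 are the same RNA, the ratios of their arrays are not independent, although this fit treats them so. Results of added fits that join these replicates are given below for some genes.

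No matrix gene passed an adjusted p of 0.05 in limma's moderated test of the 4 ratios, in which 0.0278% of all gene names were called higher and 0.0199% lower. The smallest adjusted p among the members was 0.104, for Col5a3, whose ratio was also the largest. At an unadjusted p under 0.05, 10 of the 42 members were higher in Ad/NICD and 0 were lower, where 6.26% and 8.97% of all gene names met these rules. The ratio was above 0 on all 4 arrays for 9 members (11.2% of all gene names) and below 0 on all 4 for 0 (13.3%). The 4 Ad/NICD levels lay above the 4 WT levels without overlap for 5 members, Col5a3, Col6a1, Sparc, Col15a1 and Timp2 (4.21% of all gene names), and below them for 0 (5.58%). The mean ratio was above 0 for 32 of 42 members and below 0 for 10, where 48.4% of all gene names were above 0. With arrays centred on their median in place of loess, 17 members and 19% of all gene names were above 0.

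The ratios of the whole list ranged widely between arrays. The median log2 ratio of the 42 members was 0.29, against -0.006 for all gene names, and on the single arrays it was -0.41, 0.49, 0.13 and 1.18. On the array of replicate 1, 9 of the 42 members were above 0, where 45.9% of all gene names were. On the arrays of replicates 2, 3 and 4, the numbers above 0 were 34, 29 and 41, where 47.7%, 48.7% and 51.4% of all gene names were above 0. Array 1 gave the lowest ratio of the 4 for 36 of the 42 members and array 4 the highest for 35, and 18 members were below 0 on array 1 and above 0 on the other 3. Without replicate 4 the median was 0.09, and without replicate 1 it was 0.56. Without replicate 4, 5 members were higher at an unadjusted p under 0.05 and 4 were lower. Without replicate 1, 19 were higher. The shares of all gene names meeting this rule are not given for these settings, so these counts cannot be set against them.

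**Figure D1:**
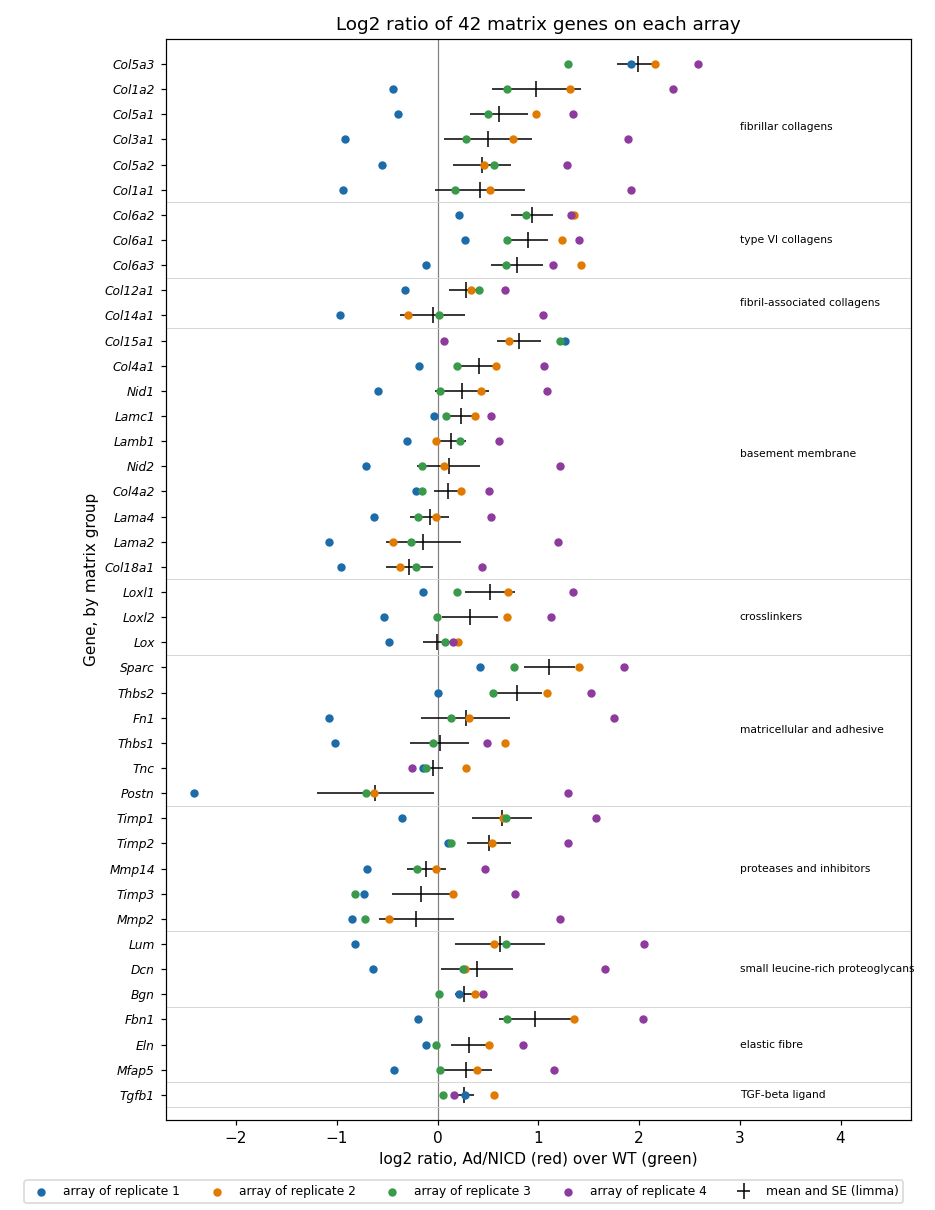
Log2 ratio of Ad/NICD over WT (x axis) for the 42 matrix genes (y axis, by group), 1 point per array, with the mean and limma's standard error over 4 arrays as a bar. Points of replicate 1 lie below 0 for most genes and the point of replicate 4 lies farthest right for 35 of the 42, and Col5a3 is the gene whose 4 points all lie above 1.2.

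The 6 fibrillar collagen chains, which assemble into the load-bearing fibres, all had mean ratios above 0, from 0.42 to 1.99 with a median of 0.56, although Col5a2 was -0.02 with median centring. On the array of replicate 1 only Col5a3 was above 0. Col5a3, a minor chain of type V collagen that helps to start fibres, had WT levels of 12.36, 12.12, 12.53 and 12.38 and Ad/NICD levels of 14.28, 14.28, 13.82 and 14.97. All Ad/NICD samples lay above all WT samples, by more than the range within either group, with means of 12.31 ± 0.17 (SD, n = 3) and 14.34 ± 0.48 (SD, n = 4). The mean log2 ratio was 1.99 ± 0.21 (SE, 4 arrays), which is 3.98-fold, and the array values were 1.92, 2.16, 1.29 and 2.59. Its unadjusted p was 0.000176 and its adjusted p 0.104 in limma. It stayed between 1.79 and 2.22 with any 1 replicate left out, and was 1.96 from the authors' deposited table. With the 2 channels fitted as separate samples and a random block for the array, Col5a3 passed at an adjusted p of 0.0084 in limma, among the 0.843% of all gene names called higher there. With no block it passed at 0.0163 (0.398% called higher), but limma's adjusted p was 0.0839 with no block and WT replicates 1 and 3 as 1 sample.

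The region before the start of Col5a3 is shown because this gene had the largest ratio of the list. It lies on chromosome 9 at chr9:20815018-20815317 on the minus strand (RefSeq promoter on GRCm38.p6, 250 bases before to 50 after the start). Capitals mark the CCAAT box, the motif CCAAT on either strand, which 37.4% of all 32851 promoters of this length hold.

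Col5a3: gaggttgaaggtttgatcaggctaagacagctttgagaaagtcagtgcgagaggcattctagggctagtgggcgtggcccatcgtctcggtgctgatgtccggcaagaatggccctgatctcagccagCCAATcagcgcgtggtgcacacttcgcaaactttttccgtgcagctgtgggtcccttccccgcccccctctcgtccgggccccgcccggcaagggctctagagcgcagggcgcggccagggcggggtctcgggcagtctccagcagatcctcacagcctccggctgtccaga

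Of the 42 members, 25 had a promoter in the RefSeq table, 29 promoters in all. A CCAAT box lay in 12 of the 29 promoters, those of 12 genes, and in 37.4% of all promoters. The motif GTGGGAA, the core letters bound by RBPJ, the DNA-binding partner of the Notch intracellular domain, was searched on both strands and found in 3 of the 29 promoters, those of Fbn1 and Tnc, and in 6.38% of all promoters. It was not among the letters of the Col5a3 window, which says nothing of sites elsewhere.

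The other fibrillar chains followed the array pattern of the whole list. Col1a2, a chain of type I collagen, had WT levels of 15.64, 14.43, 15.09 and 13.47 and Ad/NICD levels of 15.20, 15.74, 15.78 and 15.81. Ad/NICD replicates 2 to 4 lay within 0.07 of each other, but the groups overlapped because WT replicate 1 was above Ad/NICD replicate 1, and the mean ratio was 0.98 ± 0.44 (SE) with an adjusted p of 0.383 in limma. Col3a1, the type III chain of young and compliant tissue, had WT levels of 15.22, 14.44, 14.77 and 13.50 and Ad/NICD levels of 14.30, 15.20, 15.05 and 15.39. The spread of its WT samples was wider than the mean ratio of 0.50 ± 0.44 (SE). Col5a1, a main chain of type V collagen, had WT levels of 12.46, 12.19, 12.51 and 11.77 and Ad/NICD levels of 12.07, 13.18, 13.01 and 13.12. Its ratio was -0.39 on array 1 and 0.98, 0.50 and 1.34 on the others, a mean of 0.61 ± 0.29 (SE). Col1a1 (0.42 ± 0.45) and Col5a2 (0.44 ± 0.29) were below 0 on array 1 and above 0 on the other 3, and Col1a1 had a mean of -0.08 without replicate 4.

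The 3 chains of type VI collagen, which form the beaded filaments around adipocytes, lay closest together of the groups with 2 or more genes, with mean ratios of 0.79 to 0.94 and all 3 at an unadjusted p under 0.05. Col6a1 had WT levels of 13.72, 13.36, 13.87 and 13.27 and Ad/NICD levels of 13.98, 14.60, 14.56 and 14.67. The groups did not overlap, although Ad/NICD replicate 1 was only 0.11 above the highest WT sample. Its mean ratio was 0.90 ± 0.20 (SE), or 1.86-fold (limma, adjusted p = 0.168). With a random block for the array, Col6a1 passed in limma's fit of separate channels (adjusted p = 0.0493), and it did not with no replicate block (adjusted p = 0.0715) or with no block and WT replicates 1 and 3 as 1 sample (adjusted p = 0.141).

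Col6a2 had WT levels of 11.68, 11.44, 11.94 and 11.34 and Ad/NICD levels of 11.89, 12.79, 12.81 and 12.66. Ad/NICD replicate 1 fell inside the WT range and the other 3 lay above it, for a mean ratio of 0.94 ± 0.21 (SE). Col6a3, the longest of the chains and the precursor of the fragment endotrophin, had WT levels of 13.01, 12.60, 13.02 and 12.60 and Ad/NICD levels of 12.90, 14.02, 13.71 and 13.75. Again Ad/NICD replicate 1 fell inside the WT range and the other 3 lay above it, with a ratio of -0.11 on array 1 and a mean of 0.79 ± 0.26 (SE). The adjusted p values in limma were 0.162 for Col6a2 and 0.264 for Col6a3. Without replicate 1 the group's median ratio was 1.11, and without replicate 4 it was 0.73.

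Col6a1 and Col6a2 are neighbours on chromosome 10, and their array ratios differed by 0.19 or less. Their starts are shown because their ratios were the closest of the 4 neighbouring pairs among the members. The Col6a1 window is chr10:76725995-76726294 and the Col6a2 window chr10:76623355-76623654, both on the minus strand (RefSeq, GRCm38.p6). A second Col6a2 start in the table is not printed. Nothing is in capitals because neither GTGGGAA nor CCAAT was among the letters of either window.

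Col6a1: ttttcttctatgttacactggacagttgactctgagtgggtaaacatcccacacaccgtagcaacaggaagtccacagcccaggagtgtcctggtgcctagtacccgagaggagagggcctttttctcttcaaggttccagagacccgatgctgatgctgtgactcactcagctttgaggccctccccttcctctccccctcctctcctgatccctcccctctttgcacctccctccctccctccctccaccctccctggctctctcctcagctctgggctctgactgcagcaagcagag

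Col6a2: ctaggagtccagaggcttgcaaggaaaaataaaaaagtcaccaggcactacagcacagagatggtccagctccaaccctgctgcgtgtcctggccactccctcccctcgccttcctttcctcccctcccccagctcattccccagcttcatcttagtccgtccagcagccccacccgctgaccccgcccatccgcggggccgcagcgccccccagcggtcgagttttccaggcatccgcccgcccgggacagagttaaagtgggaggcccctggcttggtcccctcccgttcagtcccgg

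**Figure D2:**
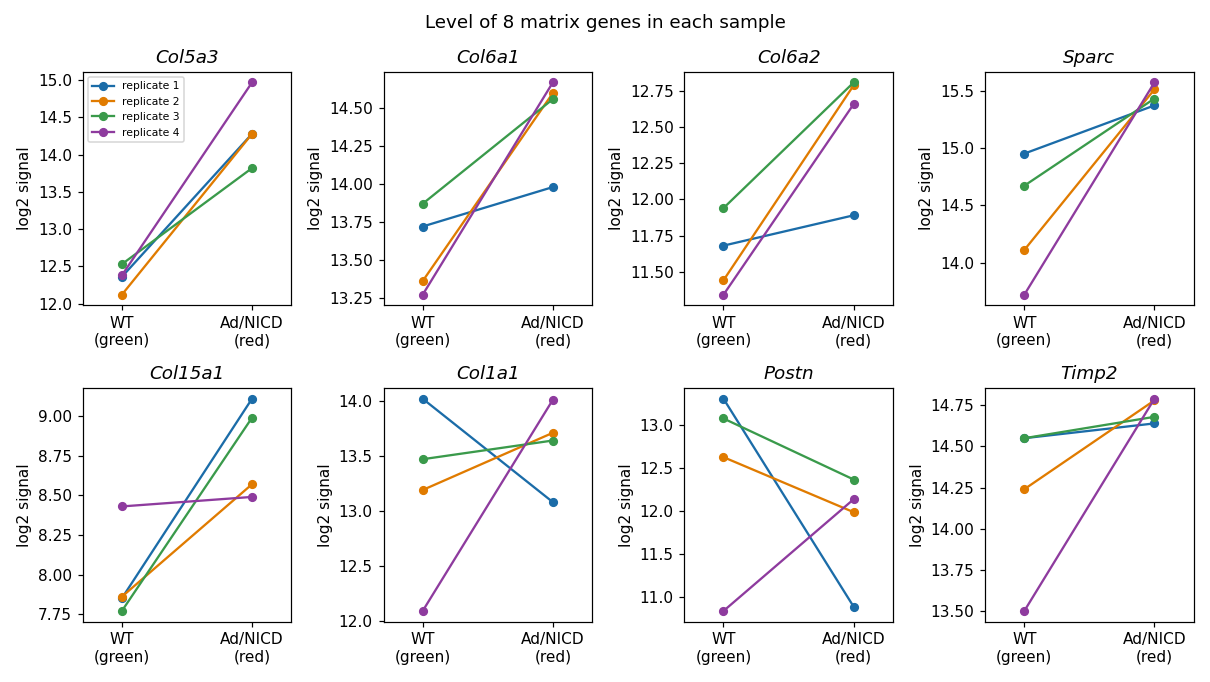
Log2 signal (y axes, each with its own range that does not start at 0) of 8 matrix genes in the WT and Ad/NICD samples, 1 line per replicate pair hybridised on the same array. All lines slope upward for Col5a3, Col6a1, Col6a2, Sparc, Col15a1 and Timp2, and the lines of replicates 1 and 4 run opposite ways for Col1a1 and Postn.

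Of the 2 fibril-associated collagens, which sit on the surface of fibres, Col12a1 had a mean ratio of 0.28 ± 0.17 (SE) and Col14a1 of -0.05 ± 0.32 (SE). Col14a1 was -0.97 on array 1 and 1.05 on array 4, and its mean took the opposite sign in several of the alternative settings.

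The 10 basement membrane genes had a median ratio of 0.12, with 7 means above 0 and 3 below. Col15a1, a collagen between basement membranes and the fibres outside them, did not share the array pattern of the other members. Its WT levels were 7.85, 7.86, 7.77 and 8.43 and its Ad/NICD levels 9.11, 8.57, 8.99 and 8.49. The groups did not overlap, by a margin of 0.06 between WT replicate 4 and Ad/NICD replicate 4, the lowest Ad/NICD sample. The mean ratio was 0.81 ± 0.22 (SE), with 1.26, 0.71, 1.22 and 0.06 on the 4 arrays (limma, adjusted p = 0.207). Without replicate 4 it was 1.06. The 2 dimmer Col15a1 probes had mean ratios of 0.31 and 0.25, and neither was above 0 on every array.

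The type IV collagen chains, the network within every basement membrane, had small ratios. Col4a1 had WT levels of 12.08, 12.18, 12.21 and 11.92 and Ad/NICD levels of 11.90, 12.76, 12.40 and 12.98. The groups overlapped through Ad/NICD replicate 1, the lowest of all 8 samples, and the mean ratio was 0.41 ± 0.21 (SE). Col4a2 had WT levels of 12.30, 12.24, 12.40 and 12.08 and Ad/NICD levels of 12.09, 12.47, 12.25 and 12.59. The groups overlapped, with a mean ratio of 0.10 ± 0.14 (SE). The adjusted p values in limma were 0.425 and 0.789.

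Col4a1 and Col4a2 are transcribed in opposite directions from starts close together on chromosome 8. They are shown because the ratio of one was above that of the other on all 4 arrays. The Col4a1 window is chr8:11312777-11313076 on the minus strand and the Col4a2 window chr8:11312555-11312854 on the plus strand (RefSeq, GRCm38.p6). Capitals mark the 78 bases that both windows contain, each printed 5′ to 3′ on its own gene's strand.

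Col4a1: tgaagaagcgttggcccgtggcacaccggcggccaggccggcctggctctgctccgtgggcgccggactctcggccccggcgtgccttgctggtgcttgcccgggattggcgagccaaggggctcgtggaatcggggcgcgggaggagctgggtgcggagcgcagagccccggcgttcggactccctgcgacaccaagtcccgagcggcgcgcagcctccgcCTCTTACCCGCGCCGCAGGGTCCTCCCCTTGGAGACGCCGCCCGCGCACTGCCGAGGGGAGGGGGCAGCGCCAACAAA

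Col4a2: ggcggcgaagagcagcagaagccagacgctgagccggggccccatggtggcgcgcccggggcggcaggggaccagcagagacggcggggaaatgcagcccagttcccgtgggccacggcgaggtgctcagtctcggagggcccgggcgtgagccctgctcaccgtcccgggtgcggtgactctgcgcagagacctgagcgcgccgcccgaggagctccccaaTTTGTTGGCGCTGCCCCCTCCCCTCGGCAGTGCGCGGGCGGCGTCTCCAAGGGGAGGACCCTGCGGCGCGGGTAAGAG

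Among the other basement membrane genes, 2 laminin chains, Lamc1 (0.23 ± 0.11, SE) and Lamb1 (0.13 ± 0.15), and the laminin-binding nidogens Nid1 (0.24 ± 0.27) and Nid2 (0.11 ± 0.31) had means above 0. Lama2 (-0.14 ± 0.37), Lama4 (-0.08 ± 0.19) and Col18a1, the source of endostatin (-0.28 ± 0.23), had means below 0. The lowest adjusted p among these 7 in limma was 0.407. On array 4 all 10 basement membrane genes were above 0, and on array 1 only Col15a1 was.

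The lysyl oxidases, which oxidise lysines so that collagen and elastin can crosslink, had mean ratios of 0.52 ± 0.25 (SE) for Loxl1, 0.32 ± 0.28 for Loxl2 and -0.01 ± 0.13 for Lox. Loxl1, which acts mainly on elastic fibres, had WT levels of 12, 11.87, 12.12 and 10.94 and Ad/NICD levels of 11.86, 12.57, 12.30 and 12.28. WT replicate 4 was about 0.9 below the other WT samples, the groups overlapped through Ad/NICD replicate 1, and the adjusted p was 0.406 in limma. All 3 genes were below 0 on array 1 and above 0 on array 4.

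The 6 matricellular and adhesive genes held both the second largest ratio and the lowest ratio of the list, around a median of 0.15. Sparc, a collagen-binding protein that helps to lay down fibres, had WT levels of 14.95, 14.11, 14.67 and 13.72 and Ad/NICD levels of 15.37, 15.51, 15.43 and 15.57. The Ad/NICD samples lay within 0.20 of each other and all lay above the WT samples, which spread over 1.23. The means were 14.21 ± 0.55 (SD, n = 3) and 15.47 ± 0.088 (SD, n = 4). The mean ratio was 1.11 ± 0.25 (SE), or 2.16-fold (limma, adjusted p = 0.164), and all 3 Sparc probes were above 0 on every array. Thbs2, a thrombospondin that binds proteases and restrains vessel growth, had WT levels of 9.86, 9.83, 9.93 and 8.24 and Ad/NICD levels of 9.86, 10.93, 10.48 and 9.75. The groups overlapped, with ratios of 0.00, 1.09, 0.55 and 1.52 and a mean of 0.79 ± 0.25 (SE, adjusted p = 0.256 in limma).

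Postn, periostin, a fibroblast product that aids collagen assembly, varied the most between arrays. Its WT levels were 13.31, 12.63, 13.08 and 10.84 and its Ad/NICD levels 10.89, 11.99, 12.37 and 12.14. WT replicate 4 and Ad/NICD replicate 1 were the low samples of their groups, more than 1 below the rest. The ratios were -2.42, -0.63, -0.71 and 1.29, a mean of -0.62 ± 0.58 (SE) with an adjusted p of 0.663 in limma. Fn1, fibronectin (0.28 ± 0.44), showed the same opposition of array 1 (-1.08) and array 4 (1.75). Thbs1 (0.02 ± 0.29) and Tnc, tenascin C (-0.05 ± 0.10), had means near 0, and the levels of Tnc in all 8 samples lay between 6.19 and 6.58.

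The proteases and their inhibitors had a median ratio of -0.11. Timp2, which inhibits metalloproteases and also helps Mmp14 to activate Mmp2, had WT levels of 14.55, 14.24, 14.55 and 13.50 and Ad/NICD levels of 14.64, 14.78, 14.68 and 14.79. The groups did not overlap, by a margin of 0.09 over WT replicates 1 and 3. The mean ratio was 0.51 ± 0.22 (SE, adjusted p = 0.353 in limma), and 0.26 without replicate 4. The dimmer Timp2 probe had a mean ratio of 0.203 and was not above 0 on every array. Timp1, an inhibitor often induced in remodelling tissue, had WT levels of 9.40, 9.40, 9.39 and 8.08 and Ad/NICD levels of 9.05, 10.05, 10.07 and 9.65. Ad/NICD replicate 1 lay below 3 of the WT samples, and the mean ratio was 0.64 ± 0.30 (SE, adjusted p = 0.397 in limma). Mmp2 (-0.21 ± 0.37), Mmp14 (-0.11 ± 0.19) and Timp3 (-0.16 ± 0.29), the inhibitor that stays bound to the matrix, had means below 0. Each of the 3 was below 0 on array 1 and above 0 on array 4.

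The small leucine-rich proteoglycans, which bind collagen and set fibre width, had mean ratios of 0.26 to 0.62. Lum, lumican, had WT levels of 13.75, 13.15, 13.65 and 11.31 and Ad/NICD levels of 12.93, 13.71, 14.33 and 13.37. The mean of 0.62 ± 0.45 (SE) rested on WT replicate 4, about 2 below the other WT samples, and array 1 gave -0.82. Bgn, biglycan, had WT levels of 8.35, 8.03, 8.56 and 8.25 and Ad/NICD levels of 8.56, 8.40, 8.57 and 8.70. The groups overlapped, but the ratio was above 0 on all 4 arrays, with a mean of 0.26 ± 0.091 (SE, adjusted p = 0.281 in limma). Dcn, decorin, had a mean of 0.39 ± 0.36 (SE) and of -0.04 without replicate 4.

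Fbn1, fibrillin, the microfibril protein that also stores latent TGF-beta, had WT levels of 10.54, 10.19, 10.51 and 9.50 and Ad/NICD levels of 10.35, 11.54, 11.19 and 11.55. Ad/NICD replicates 2 to 4 lay above all WT samples and replicate 1 lay among them, for a mean ratio of 0.97 ± 0.36 (SE, adjusted p = 0.308 in limma). Eln, elastin (0.31 ± 0.18), and Mfap5, a microfibril-associated glycoprotein (0.28 ± 0.26), had smaller means. Tgfb1, the growth factor that induces many matrix genes, had WT levels of 9.11, 9.09, 9.22 and 9.31 and Ad/NICD levels of 9.38, 9.65, 9.27 and 9.47. The groups overlapped, with ratios of 0.27, 0.56, 0.05 and 0.16, a mean of 0.26 ± 0.099 (SE, adjusted p = 0.317 in limma), and Tgfb1 took the opposite sign when arrays were centred on their median.

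**Figure D3:**
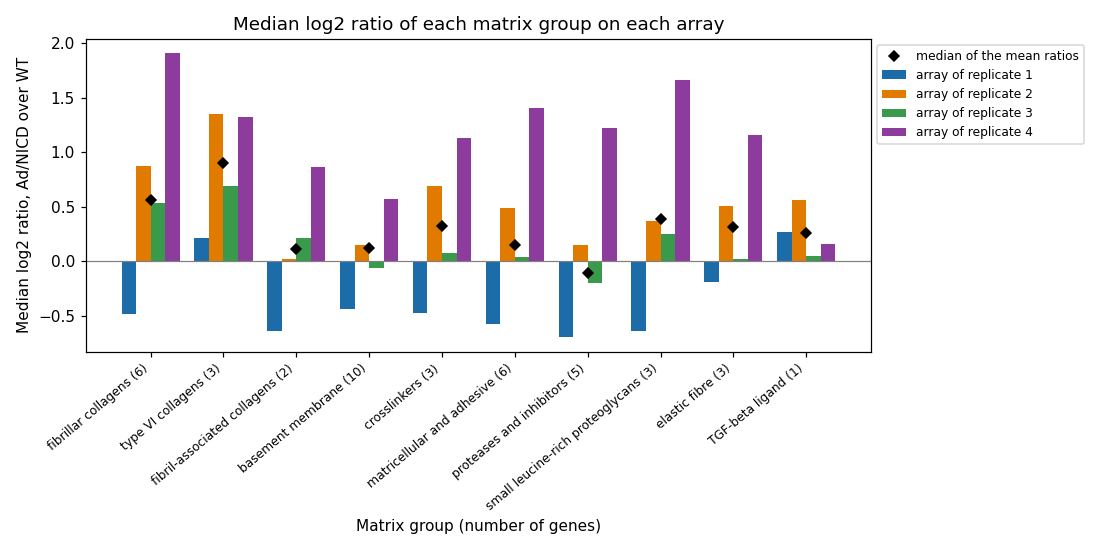
Median log2 ratio of Ad/NICD over WT (y axis) of each matrix group (x axis, with its number of genes), 1 bar per array and a diamond for the median of the mean ratios. The bar of replicate 1 is below 0 for 8 of the 10 groups, the bar of replicate 4 is above 0 for all 10, and the type VI collagens and Tgfb1 have a bar above 0 on every array.

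Because WT and Ad/NICD signals of 1 array share its errors, 10 pairs of related members were compared on the same arrays by their difference in ratio, with an exact two-sided sign-flip permutation test. With 4 arrays this exact test cannot go below p = 0.125. No pair could therefore pass the threshold used for single genes, whatever its values, so the test cannot decide whether the members of a pair differ. The pairs were drawn from members chosen with earlier results of these data known. Their differences are given as a description only. After Benjamini-Hochberg adjustment over the 10 pairs, the smallest value was 0.179. The ratio of Col5a3 was above that of Col5a1 by 1.38 ± 0.65 (SD, n = 4) and above that of Col5a2 by 1.55 ± 0.73, on all 4 arrays (each exact p = 0.125). Col1a2 was above Col1a1, its partner in type I collagen, by 0.50, 0.79, 0.53 and 0.42 (exact p = 0.125), although both chains varied widely across arrays. Col4a1 was above Col4a2 by 0.32 ± 0.22 (SD, n = 4), Thbs2 above Thbs1 by 0.77 ± 0.30, Timp2 above Mmp2 by 0.72 ± 0.44 and Loxl1 above Lox by 0.53 ± 0.47, each on all 4 arrays (each exact p = 0.125). The ratios of Col6a1 and Col6a2 differed by -0.04 ± 0.13 (SD, n = 4; exact p = 0.625), less than the spread between arrays. Col15a1 was above Col18a1 on 3 of the 4 arrays, by 1.09 ± 1.1 (exact p = 0.25), and Col6a1 above Col6a3 by 0.11 ± 0.25 (exact p = 0.375).

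The sign of many small ratios depended on how the 2 colours were balanced. Centring each array on its median, in place of loess, moved the median of all gene names to -0.32 and that of the members to -0.08, so that the members stood 0.24 above all gene names, against 0.30 with loess. On that scale Col5a3 was 1.64, Sparc 0.88, Col6a1 0.60, Col6a2 0.50 and Col15a1 0.37, and 1 member was higher and 0 were lower at an unadjusted p under 0.05. The share of all gene names meeting that rule is not given for this scale. The 15 members above 0 with loess and below 0 here were Col5a2, Col12a1, Col4a1, Col4a2, Lamb1, Lamc1, Nid1, Nid2, Loxl2, Fn1, Thbs1, Bgn, Eln, Mfap5 and Tgfb1, and 30 of the 42 members lay above the median of all gene names. The matrix probes were bright, with a median mean log2 signal of 12.03 against 8.22 over all gene names. For the 11 members with several probes, 14 of the 15 further probes had a mean ratio of the same sign as the brightest probe.

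**Figure D4:**
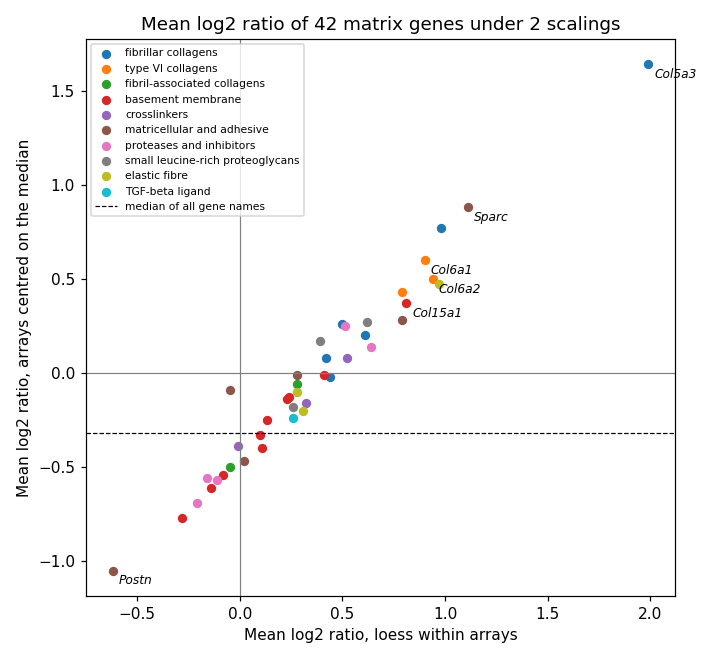
Mean log2 ratio of each of the 42 matrix genes with loess within arrays (x axis) and with arrays centred on their median (y axis), coloured by group, and the median of all gene names under the latter as a dashed line. The points keep nearly the same order, Col5a3 is highest under both, and most points lie above the dashed line.

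Other genes of the same pathways were taken from 10 lists of 142 genes, of which 138 were measured. None passed an adjusted p of 0.05 in limma, and at an unadjusted p under 0.05, 23 were higher (6.26% of all gene names) and 9 were lower (8.97%). With median centring, where 19% of all gene names were above 0, 7 were higher and 26 were lower. Without replicate 4 these counts were 19 and 24. The shares of all gene names meeting the rule are not given for these settings, so these counts say nothing particular to the matrix genes. With loess and all arrays, the median ratio of the 138 genes was 0.04. The genes that make and process collagen inside and outside the cell gave 7 of 19 higher and 0 lower, among them P4ha2, a prolyl hydroxylase subunit (1.02 ± 0.19, SE), and Adamts14, which trims procollagen (0.44 ± 0.062, and -0.08 with median centring). P4ha2 had WT levels of 10.18, 10.20, 10.14 and 10.09 and Ad/NICD levels of 10.70, 10.99, 11.74 and 11.26, with no overlap between the groups. The lists of other collagen chains gave 2 of 17 higher, other elastic fibre genes 2 of 14, other proteoglycans 1 of 8 and other crosslinkers 0 of 3, with 0 lower in each. Aspn, asporin, a small leucine-rich proteoglycan, had a mean ratio of 1.60 ± 0.27 (SE) and levels that did not overlap.

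Other matricellular genes gave 3 of 17 higher and 1 lower at an unadjusted p under 0.05 (6.26% and 8.97% of all gene names). Vtn, vitronectin, had WT levels of 10.60, 10.37, 10.73 and 10.59 and Ad/NICD levels of 11.42, 11.88, 11.94 and 11.68. All Ad/NICD samples lay above all WT samples, at a mean ratio of 1.16 ± 0.12 (SE, adjusted p = 0.104 in limma). Spon1, spondin, had a mean ratio of 1.85 ± 0.23 (SE) and Ccn5, a connective tissue growth factor relative, of 1.54 ± 0.17, also without overlap. Other proteases and inhibitors gave 5 of 17 higher and 1 lower, with Timp4, an inhibitor abundant in fat, at 1.53 ± 0.18 (SE) and Adam12, a protease of adipose stroma, at 0.40 ± 0.075.

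Matrix receptors gave 3 of 19 higher and 3 lower by the same rule (6.26% and 8.97% of all gene names). The laminin-binding integrin Itga7 was at 0.39 ± 0.082 (SE, and 0.00 with median centring) and the collagen-binding integrin Itga1 at -0.26 ± 0.056. The TGF-beta pathway gave 0 of 11 higher and 2 lower, with Smad2, which carries the signal to the nucleus, at -0.31 ± 0.058 (SE). Other basement membrane genes gave 0 of 13 higher and 2 lower, with Smoc1 at -0.92 ± 0.19 (SE). With the array as a random block, Vtn, Spon1, Aspn, P4ha2 and Smoc1 passed in limma (adjusted p of 0.0084, 0.036, 0.0214, 0.0348 and 0.0317). In that fit 0.843% of all gene names were called higher and 1.13% lower. With no block, 2 of the 138 passed as higher (0.398% of all gene names) and 1 as lower (0.621%). With no block and WT replicates 1 and 3 as 1 sample, 0 of the 138 passed, and 11 of all 25139 gene names did.

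Some lists of cell type markers moved with the matrix genes and others did not, and their part in the results was not tested. The 11 fibroblast and progenitor markers were all measured and all had mean ratios above 0, where 48.4% of all gene names did. On array 1, 4 of the 11 were above 0. The median of these markers was 0.32, and 0.08 without replicate 4. With median centring it was -0.07, where that of all gene names was -0.32. Their array medians were -0.24, 0.57, 0.07 and 0.84, the order of arrays seen for the matrix genes and also for the macrophage markers. Pdgfrb (0.53 ± 0.12, SE) and Clec3b (0.43 ± 0.14) had the lowest p of the fibroblast and progenitor list. The summed signal of the list ran from 73400 to 116000 in WT and from 106000 to 132000 in Ad/NICD. In bulk tissue, fewer cells of a type and less RNA per cell cannot be told apart. Skeletal muscle markers had a median ratio of -1.70, with array medians of -0.59, -1.67, -0.51 and -3.95, and their summed signal ran from 2150 to 107000 in WT and from 993 to 6310 in Ad/NICD. Tnnc2 (-2.61 ± 0.46, SE) and Mb (-0.94 ± 0.19) had the lowest p there.

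Adipocyte markers marked the tissue as labelled, with all 12 measured, summed signals of 290000 to 383000 in WT and 137000 to 262000 in Ad/NICD, and 2 of 12 mean ratios above 0. Their median ratio was -0.77, and Acvr1c, a receptor of adipocytes, was the one marker gene among the 2 of lowest p in each list that passed in limma (-1.71 ± 0.11, SE, adjusted p = 0.0399), followed by Adrb3 (-1.87 ± 0.23). Endothelial markers were below 0 in all 8 (median -0.31), led by Cldn5 (-1.21 ± 0.14, SE) and Kdr (-0.37 ± 0.071). Nerve and Schwann cell markers were above 0 in 6 of 7 (median 0.39), led by S100b (1.35 ± 0.14, SE) and Ngfr (1.38 ± 0.45). The median was 0.01 for macrophage markers (4 of 8 above 0), with array medians of -0.62, 0.33, -0.1 and 0.55. Of these, Itgam was at 0.42 ± 0.14 (SE) and Mrc1 at 0.65 ± 0.25. Smooth muscle and pericyte markers had a median of -0.31, with Des at -0.31 ± 0.10 (SE) and Cspg4 at -0.54 ± 0.18.

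Tendon and cartilage markers had a median ratio of -0.05, with Scx at -0.72 ± 0.28 (SE) and Sox9 at -0.39 ± 0.26, and summed signals of at most 915. Mammary epithelium markers had a median of -0.43, with Krt5 at -0.94 ± 0.41 (SE) and Csn3 at -0.16 ± 0.074. The summed mammary signal was 508 and 530 in the samples of replicate 4 and 10200 to 26700 in the other 6. Of 6 mesothelium markers 3 were measured, with a median of -0.15, Lrrn4 at -0.15 ± 0.094 (SE) and Krt19 at -0.17 ± 0.35. Krt19 was low in replicate 4, as the mammary signal was, at 6.38 in WT and 7.17 in Ad/NICD, and 12.35 or more in the other samples. Msln and Lrrn4 were dim, with levels of 5.97 to 6.94, so this median says little of mesothelium.

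**Figure D5:**
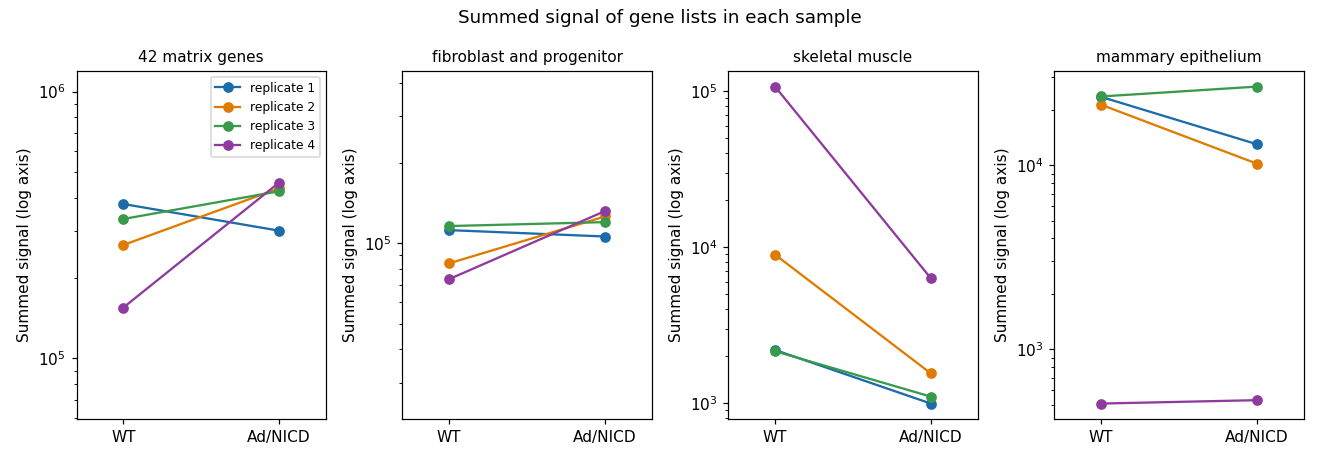
Summed linear signal (y axes, log scales) of the 42 matrix genes and of 3 marker lists in the WT and Ad/NICD samples, 1 line per replicate pair. WT replicate 4 is lowest for the matrix genes (155000) and highest for skeletal muscle (107000), and both samples of replicate 4 are lowest for mammary epithelium (508 and 530).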

How the data were processed

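RNA of 8 white adipose samples was hybridised on 4 2-colour arrays, 1 WT and 1 Ad/NICD sample each. The same-numbered WT and Ad/NICD scanner tables are identical and were read once. They hold intensities that the authors deposited from Agilent Feature Extraction 11.5, per the submitters' processing notes. The authors' deposited value table holds log2 signals of each channel, centred on a 75th percentile near 0. The log10 ratio column of the deposited scanner tables was not used for results.

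Median signals were corrected with normexp (offset 50) and normalised by loess within arrays, control spots at weight 0, in limma 3.58.1 (R 4.3.3). Spots of a probe were averaged, probes well above background in either channel on at least 3 arrays were kept, and each gene was represented by its brightest kept probe. Where the replicate 1 array lacks background flags, they were rebuilt from negative controls (6 median absolute deviations), and agreement with existing flags, by array and channel, was 98.2994% to 99.9936% of spots. Channel levels followed loess and Aquantile scaling. Ratios were tested against 0 with lmFit and eBayes, with Benjamini-Hochberg adjustment over 25139 gene names at a threshold of 0.05. The code was tested on simulated data.

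Members and lists were chosen with earlier results of these data known. Values per sample are given for members at an unadjusted p under 0.05 or a mean ratio of at least 0.5 in size, and for type VI and both type IV chains. Of the other matrix genes, none passed the threshold. Mean ratios are given for the 12 of lowest p, with levels per sample for P4ha2 and Vtn. Of markers, mean ratios are given for the 2 of lowest p in each list. Same-numbered samples share an array, and deviations of same-numbered samples from their group means correlated at r = 0.176, 0.169, 0.562 and 0.528. Differently numbered WT and Ad/NICD samples gave r from -0.53 to 0.283, the highest for WT replicate 1 with Ad/NICD replicate 3. Alternatives covered the background correction, normalisation, filter, probe choice, variance model, block, left-out replicates and the authors' table. Treating WT replicates 1 and 3 as 1 sample was chosen after seeing the data.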

Additional observations from a re-analysis of the deposited data

Results flagged for a closer look

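In the Ad/NICD group, replicate 1 was far from the other 3 samples for 5 matrix genes. Its log2 level was 15.20 for Col1a2, where the others lay between 15.74 and 15.81. It was 12.07 for Col5a1, where the others lay between 13.01 and 13.18. It was 13.98 for Col6a1 against 14.56 to 14.67, and 11.89 for Col6a2 against 12.66 to 12.81. For Lamc1 it was 12.73 against 13.11 to 13.18. Such a gap is expected by chance in about 1 in 20 independent groups, and 5 of the 84 groups looked at (42 genes as Ad/NICD levels and as ratios) showed one. All 5 were levels of the same sample, which the genes share, so the groups are not independent. The count therefore cannot be set against that rate. WT levels were not examined in this way, since replicates 1 and 3 were counted as 1 sample.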

How the results depend on the processing

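Over 42 matrix genes and 16 alternative settings, 620 of the 672 mean ratios kept their sign and their side of the threshold, 49 changed sign in 25 genes, and 3 passed the threshold only under the alternative. Those 3 were Col5a3 with separate channels and no replicate block (1.99) and, with the array as a random replicate block, Col5a3 and Col6a1. Genes past the threshold numbered 12, 0 to 43 with 1 replicate left out, 256 with no replicate block (1 matrix gene) and 496 with the random replicate block (2 matrix genes). They numbered 3 from processed signals, 3 from the authors' deposited table, and 0 with median centring, no filter, the trended robust model or the arrays of replicates 1 and 3 averaged. Matrix genes higher at an unadjusted p under 0.05 numbered 5 to 19, and those lower 0 to 4, with 1 replicate left out, and 1 was higher with median centring. The shares of all gene names meeting that rule are not given for these settings. Pairing by array changed no other matrix call.

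Median centring gave Col5a2 -0.02, Col12a1 -0.06, Col4a1 -0.01, Col4a2 -0.33, Lamb1 -0.25, Lamc1 -0.14, Nid1 -0.13, Nid2 -0.40, Loxl2 -0.16, Fn1 -0.01, Thbs1 -0.47, Bgn -0.18, Eln -0.20, Mfap5 -0.10, Tgfb1 -0.24, Adamts14 -0.08 and Itga7 0.00. Processed signals gave Col14a1 0.10, Lama4 0.02 and Tnc 0.02, and the authors' table gave Col14a1 0.08 and Tnc 0.03. Averaging arrays 1 and 3 gave Col14a1 0.09, Lama2 0.03, Lama4 0.03, Lox 0.05, Mmp14 0.00 and Timp3 0.05, and WT replicates 1 and 3 as 1 sample gave Col14a1 0.08, Lama2 0.01 and Mmp14 0.04. With 1 replicate left out, ratios turned for the following genes, each given with its lowest and highest value. Without replicate 4 these were Col1a1 (-0.08 to 0.87), Col4a2 (-0.04 to 0.20), Lamb1 (-0.03 to 0.27), Nid1 (-0.05 to 0.52), Nid2 (-0.27 to 0.38), Fn1 (-0.21 to 0.73), Tnc (-0.17 to 0.01), Dcn (-0.04 to 0.73) and Mfap5 (-0.01 to 0.52). Without replicate 1 or 2 this was Col14a1 (-0.42 to 0.26). Without replicate 1 these were Lama2 (-0.59 to 0.17), Lama4 (-0.28 to 0.11), Lox (-0.08 to 0.14), Mmp2 (-0.69 to 0.00) and Mmp14 (-0.31 to 0.08). Without replicate 2 or 4 this was Thbs1 (-0.19 to 0.37). Without replicate 1 or 3 this was Timp3 (-0.47 to 0.06). The causes were not tested.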

Other observations

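Between the WT samples alone, the matrix genes covered a wide range. The summed signal of the 42 genes was 379000, 266000, 333000 and 155000 in WT replicates 1 to 4 and 301000, 434000, 423000 and 456000 in Ad/NICD. The 6 fibrillar chains summed to 117000, 63100, 86300 and 36400 in WT, and to 90900, 135000, 126000 and 159000 in Ad/NICD. The 3 type VI chains varied less, at 25000, 19500, 27200 and 18700 in WT and 27600, 48500, 44600 and 46400 in Ad/NICD, where every Ad/NICD sum was above every WT sum.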
